A study of Mus musculus with 6 samples.

Results

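The genes described here are 10 transcription factors that define the early pancreatic epithelium and its tip and trunk domains: Pdx1, Ptf1a, Sox9, Nkx6-1, Nkx6-2, Mnx1, Prox1, Nr5a2, Hhex and Glis3. They and the related lists used below were chosen by name, with earlier results of these data known. All 10 were measured among 24010 named genes, each with a mean intensity above the median gene's 56.4. No filter on low values was used. RNA came from dorsal pancreatic buds of mouse embryos at E11.5, each sample a pool of 10 buds kept in culture for 24 h, and was hybridised to Affymetrix whole-transcript arrays, 1 pool an array. The 6 arrays formed 3 groups of 2, with 0.1% DMSO as the control, 500 nM I-BET151, or 100 nM JQ1 in the medium; whether treated cultures also held DMSO is not given. I-BET151 and JQ1 are small molecules that block the acetyl-lysine pockets of BET proteins, chromatin readers that help recruit the machinery of transcription elongation. Strain and genotype are not given in the labels, nor is it given if pools came from separate litters or cultures. The p-values therefore measure the spread among the pools alone, and some of it may be technical.

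In the early bud, multipotent progenitors co-express Pdx1, Ptf1a, Sox9 and Nkx6-1, and can still give rise to acinar, duct and endocrine cells. As the epithelium branches, Ptf1a and Nr5a2 become features of the tips, from which acinar cells arise, while Sox9, Nkx6-1, Nkx6-2 and Glis3 persist in the trunk, from which duct and endocrine cells arise. Ptf1a and Nkx6-1 repress each other in this choice. Mnx1 is needed for the dorsal bud to form and acts later in beta cells, Hhex is needed for the ventral bud, and Prox1 supports progenitor growth.

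Mnx1 was the member that passed the test. Its level rose 1.58-fold with JQ1. With I-BET151 the ratio was 1.55, short of the threshold. The other 9 members were not called under either inhibitor. Among them Nr5a2, Hhex and Glis3 lay below both control arrays on all 4 treated arrays, by 1.19-fold to 1.46-fold in the group means of the log2 values. Of all genes, 20.7% lay below both controls under I-BET151 and 21.0% under JQ1. The share of all genes with all 4 treated arrays on 1 side of the controls is not given here. The core progenitor factors Pdx1, Ptf1a, Sox9 and Nkx6-1 and the factors Nkx6-2 and Prox1 had ratios to control between 0.884 and 1.18. Here called means a limma p below 0.05 after Benjamini-Hochberg adjustment over all 24010 genes. By this rule 0 of 10 members were called under I-BET151, where 1.13% of all genes were. Under JQ1 1 of 10 was called, as higher, where 3.80% of all genes were called and 1.13% were called as higher. At an unadjusted p under 0.05 the count was 3 of 10 for each inhibitor, against 18.9% and 21.6% of all genes.

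The promoters of Mnx1, Nr5a2 and Hhex are printed here because these were the members whose 95% intervals lay to one side of no change under both inhibitors. Each is the 250 bases before a RefSeq transcription start in GRCm38.p6, 5′ to 3′ on the gene's strand. Capitals mark matches on either strand to 4 motifs: the TATA box TATAAA, the CCAAT box CCAAT, the GC box GGGCGG, and the homeodomain core TAATTA. The files name no build for the arrays, and the array values do not bear on which start was used.
Mnx1, chr5:29478471-29478720, minus strand: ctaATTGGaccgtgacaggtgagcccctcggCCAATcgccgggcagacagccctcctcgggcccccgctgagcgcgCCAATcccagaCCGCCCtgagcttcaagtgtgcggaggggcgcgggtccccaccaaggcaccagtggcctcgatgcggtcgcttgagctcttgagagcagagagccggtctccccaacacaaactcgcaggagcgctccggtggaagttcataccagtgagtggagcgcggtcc
Hhex, chr19:37434591-37434840, plus strand: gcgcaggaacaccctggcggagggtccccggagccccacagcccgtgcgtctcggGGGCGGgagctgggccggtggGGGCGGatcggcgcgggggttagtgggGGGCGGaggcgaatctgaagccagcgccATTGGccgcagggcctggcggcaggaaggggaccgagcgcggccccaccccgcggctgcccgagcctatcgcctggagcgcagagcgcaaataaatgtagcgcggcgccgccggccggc
Nr5a2, chr1:136960449-136960698, minus strand, upstream start: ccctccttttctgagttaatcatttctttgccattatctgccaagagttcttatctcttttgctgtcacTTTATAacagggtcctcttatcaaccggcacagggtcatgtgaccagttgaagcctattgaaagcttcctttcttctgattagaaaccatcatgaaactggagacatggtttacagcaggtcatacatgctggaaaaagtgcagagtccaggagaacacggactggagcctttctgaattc
Nr5a2, chr1:136953631-136953880, minus strand, downstream start: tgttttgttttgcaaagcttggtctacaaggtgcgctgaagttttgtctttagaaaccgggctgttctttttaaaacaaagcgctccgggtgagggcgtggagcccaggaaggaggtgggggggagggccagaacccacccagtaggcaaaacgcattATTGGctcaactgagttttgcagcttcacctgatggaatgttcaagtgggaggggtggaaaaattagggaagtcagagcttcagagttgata

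The Mnx1 promoter held CCAAT boxes and a GC box, and Hhex held GC boxes and a CCAAT box. The upstream Nr5a2 start held a TATA match and the downstream start a CCAAT match. The window was rich in CpG for Mnx1 and Hhex, with 0.763 and 0.906 of the CpG count that their base composition gives by chance, and poor for Nr5a2, with 0.172 and 0.431. Over the 11 starts listed for 9 of the 10 members, 7 had a ratio of at least 0.6, a share that was 34% among 32841 mouse starts. A CCAAT match was found at 6 of the 11 starts, against 33.9% of all starts. A GC box was found at 5 of 11, against 32.7%. TATAAA was found at 2 of 11, against 12.4%, and TAATTA at 0 of 11, against 4.84%. A match describes these letters and is not a measured binding site.

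Pdx1 stands near the top of pancreas development, since the organ fails to grow without it. The Pdx1 intensity was 252 and 228 in DMSO, 246 and 281 with I-BET151, and 244 and 330 with JQ1. The treated arrays overlapped with the controls, and the array JQ1 2 stood apart at the top. The log2 changes were 0.13 ± 0.17 and 0.24 ± 0.17 (SE, n = 2 a group; limma adjusted p = 0.725 and 0.497), with 95% intervals of the ratio from 0.807 to 1.49 and from 0.871 to 1.61. Without JQ1 2 the JQ1 value was 0.03.

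Ptf1a, a bHLH factor that works in a complex with Rbpj or Rbpjl and an E protein, had a mean intensity just above the median of all genes, at 59.8 against 56.4. Its intensity was 60 and 53 in the controls, 53 and 63 with I-BET151, and 61 and 69 with JQ1. Both JQ1 arrays were above both controls, the lower of them by 1 unit. Its log2 changes were 0.04 ± 0.13 and 0.20 ± 0.13 (SE, n = 2 a group), and neither was called (limma adjusted p = 0.926 and 0.444). The deposited values are whole numbers, so 1 unit is the smallest step this gene can show.

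Sox9, which maintains the progenitor pool, was measured most tightly among the core factors. Its intensity was 1531 and 1475 in the controls, 1579 and 1458 with I-BET151, and 1418 and 1650 with JQ1. The treated arrays fell on both sides of the controls in each group. The intervals of the ratio to control were 0.847 to 1.20 for I-BET151 and 0.854 to 1.21 for JQ1.

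Nkx6-1 and its paralogue Nkx6-2 are homeodomain repressors of the trunk and its endocrine descendants. Nkx6-1 had an intensity of 307 and 328 in the controls, 425 and 309 with I-BET151, and 313 and 409 with JQ1. In each treated group 1 array matched the controls and the other was higher, so the intervals were the widest of the 10 members, with a ratio of 0.790 to 1.65 under I-BET151 and 0.780 to 1.63 under JQ1. Nkx6-2 was at 90 and 96 in the controls, 95 and 71 with I-BET151, and 93 and 103 with JQ1, and all 3 groups overlapped. On each array the log2 ratio of the tip factor Ptf1a to the trunk factor Nkx6-1 was set against the control mean. It was 0.14 and -0.14 in the controls, -0.51 and 0.20 with I-BET151, and 0.13 and -0.08 with JQ1, so the balance of these antagonists showed no common direction in either treated group.

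**Figure D1:**
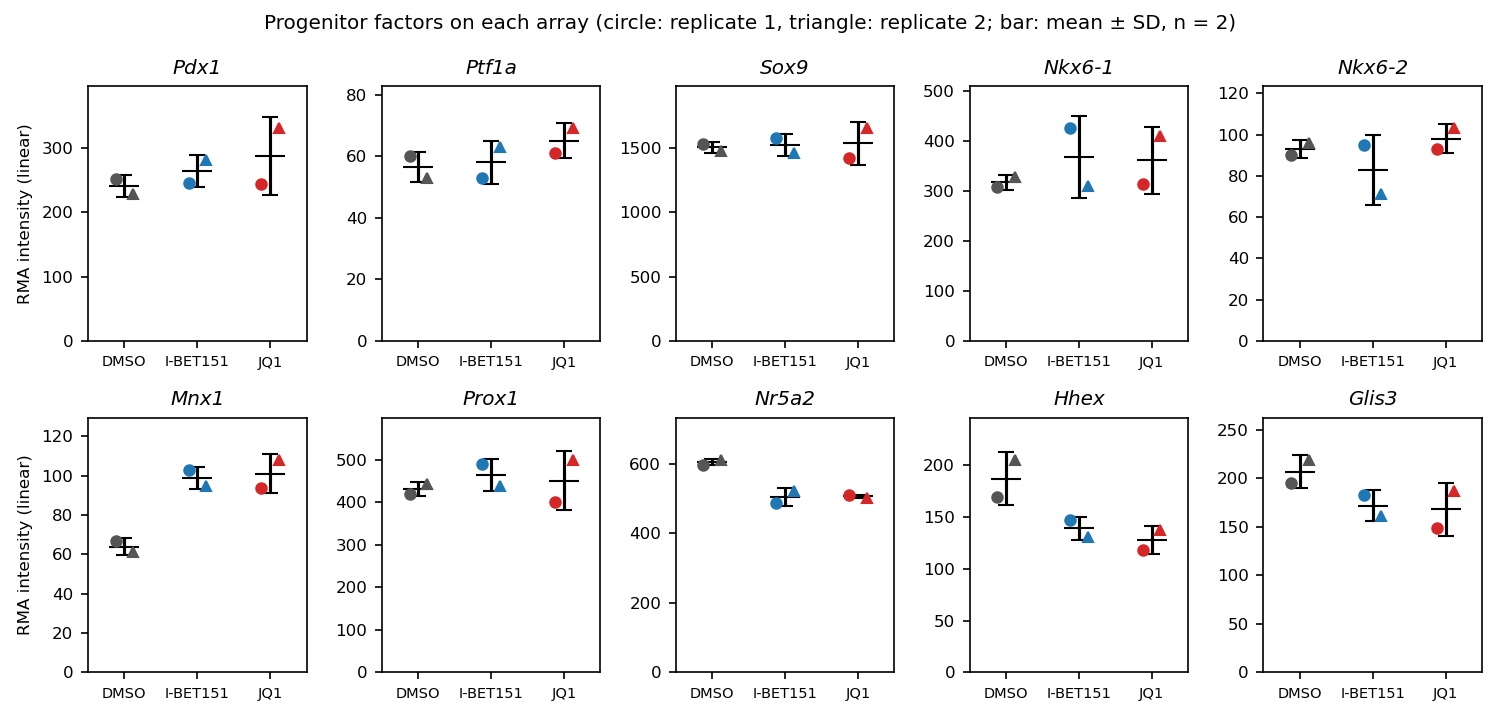
RMA intensity on a linear scale (vertical axes, from 0) of the 10 factors on each array, by treatment (horizontal axes), with circles for replicate 1, triangles for replicate 2 and black bars for the mean ± SD of n = 2. Mnx1 stands above its controls in all 4 treated arrays, Nr5a2, Hhex and Glis3 stand below theirs, and the other panels overlap except Ptf1a under JQ1.

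Mnx1 had an intensity of 67 and 61 in the controls, 103 and 95 with I-BET151, and 94 and 108 with JQ1. Every treated array was above every control, and the 2 treated groups overlapped. The mean went from 64.0 ± 4.24 to 99.0 ± 5.66 and 101 ± 9.90 (SD, n = 2). The log2 change was 0.63 ± 0.10 under I-BET151 (SE, limma adjusted p = 0.0755) and 0.66 ± 0.10 under JQ1 (adjusted p = 0.0466), and for the mean of both inhibitors it was 0.64 ± 0.09 (adjusted p = 0.0330, in a contrast where 4.92% of all genes were called). The size was stable while the call was not: leaving out any single array of the 6, whether a control, I-BET151 or JQ1 array, gave a JQ1 value of 0.56 to 0.76 and an adjusted p of 0.109 to 0.201, in fits with 0 genes called under JQ1. When genes dimmer than the median were also left out, Mnx1 passed under JQ1 in 6 of these 6 fits and under I-BET151 in 4 of 6. Leaving out an array of a group leaves 1 array there, which is then assumed to vary like the other groups.

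Mnx1 is also expressed in notochord and spinal motor neurons. The 7 measured markers of these tissues had a summed intensity of 198 to 206 in the controls, 200 to 211 under I-BET151 and 216 to 225 under JQ1, and 0 of 7 were called under either inhibitor. The sum was higher under JQ1 than in the controls, and its part in the Mnx1 result was not tested. These 7 markers were dim, from 16 for Noto to 56 for Lhx4 on single arrays, all below the median gene's 56.4. None of these markers, nor any other gene of the lists used here, was at the lowest value of the table, which is 5. Among beta-cell genes, where Mnx1 acts later, Ins2 was at a mean of 9 in the controls, 10.0 under I-BET151 and 9.50 under JQ1. These Ins2 values lie below 17.5, the bound of the dimmest 25% of genes. Of 12 endocrine lineage factors, 0 were called under I-BET151 and 1, Neurod1, rose under JQ1. Log2 changes were positive for 9 of the 12 under I-BET151 and for 6 under JQ1. The part of endocrine cells in the Mnx1 result was not tested.

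The 4 genes whose log2 pattern over the 6 arrays was most like that of Mnx1, among 11102 named protein-coding genes with a mean intensity of at least the median of all genes, were Mknk2, Mdm1, Ccdc107 and Vcl. Their root mean square difference from Mnx1 was 0.057 to 0.064 on the log2 scale, after each gene was set against its control mean. Vcl, which encodes the adhesion protein vinculin, was at 670 and 661 in the controls, 1046 and 944 with I-BET151, and 1052 and 1100 with JQ1. Mknk2, which encodes a kinase of the translation factor eIF4E, was at 809 and 798, 1238 and 1150, and 1229 and 1309 in the same order. Likeness over so few arrays describes the shape of these values only.

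Nr5a2 encodes an orphan nuclear receptor that drives expansion of the acinar lineage. Its intensity was 598 and 611 in the controls, 487 and 523 with I-BET151, and 509 and 503 with JQ1. All 4 treated arrays were below both controls, and the 2 treated groups overlapped. The log2 change was -0.26 ± 0.06 under each inhibitor (SE, n = 2 a group), and neither passed (limma adjusted p = 0.137 and 0.106). The intervals of the ratio to control were 0.745 to 0.935 and 0.747 to 0.938. For the mean of both inhibitors the adjusted p was 0.0727. Nr5a2 passed in some alternative fits. With a trended robust prior its adjusted p was 0.0444 under I-BET151 and 0.0361 under JQ1, the one alternative of 22 that called it in each, and over all 22 it was 0.0444 to 0.932 and 0.0361 to 0.811. For the mean Nr5a2 passed in 3 of 6 alternatives that kept both arrays of each group and did not rescale the arrays. It passed in 0 of 3 scalings. Over these fits its adjusted p was 0.0155 to 0.846.

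Hhex, a homeobox factor, had the lowest ratio to control of the 10 members. Its intensity was 169 and 205 in the controls, 147 and 131 with I-BET151, and 118 and 137 with JQ1. The treated arrays were again all below the controls, while the controls themselves differed by more than the pairs of treated arrays did. The log2 changes were -0.42 ± 0.14 and -0.55 ± 0.14 (SE, n = 2 a group; limma adjusted p = 0.207 and 0.108). Under JQ1 Hhex passed in 2 of 7 alternative fits that kept both arrays of each group compared and did not rescale the arrays. Without the genes below the median intensity its adjusted p was 0.0244, and over these 7 it was 0.0163 to 0.183. It passed in 0 of 3 scalings (adjusted p of 0.0820 to 0.125). For the mean of both inhibitors the adjusted p of Hhex was 0.0947. There it passed in 3 of 6 such fits and in 0 of 3 scalings.

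Glis3, a zinc finger factor that acts on Neurog3 and on duct cells, was at 195 and 219 in the controls, 183 and 161 with I-BET151, and 149 and 187 with JQ1. The closest treated array was 8 units below the lower control. Its log2 changes were -0.27 ± 0.14 and -0.31 ± 0.14 (SE, n = 2 a group), with limma adjusted p of 0.407 and 0.311. Prox1, a homeobox factor also used by hepatoblasts and lymphatic endothelium, overlapped with the controls throughout, at 419 and 442, then 490 and 437, then 401 and 499. Its ratios to control were 1.08 and 1.04, with intervals of 0.851 to 1.36 and 0.823 to 1.31.

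**Figure D2:**
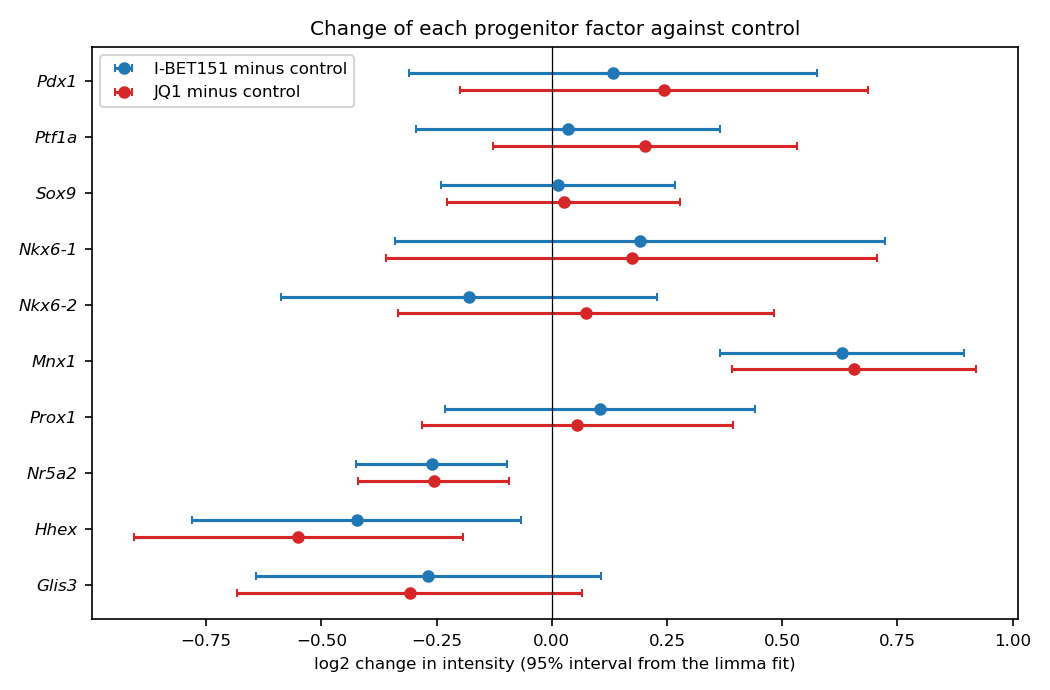
Log2 change in intensity against control (horizontal axis) of each factor (vertical axis), with points for the limma estimate and bars for its 95% interval, in blue for I-BET151 and red for JQ1, n = 2 arrays a group. The intervals of Mnx1 lie above 0 and those of Nr5a2 and Hhex below 0 for both inhibitors, and the other 7 members' intervals include 0.

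Counted over the members, treated arrays did not overlap with the controls for 4 of 10 factors under I-BET151 (1 above, 3 below) and for 5 of 10 under JQ1 (2 above, 3 below). These counts were near the shares among all genes, 42.1% (21.5% above, 20.7% below) and 44.9% (23.9% above, 21.0% below). The median log2 change of the 10 members was 0.02 and 0.07, beside 0.00 and 0.02 over all genes. Both inhibitors were compared with the same control arrays, so their values for a member are not independent.

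The 2 inhibitors were used at different doses and are different compounds, so their contrast compares the treatments as given. No member and no gene was called between them in limma (0 of 10 and 0 of 24010, or 0%), and 0 of 10 members had an unadjusted p under 0.05, against 6.71% of all genes. The arrays of the inhibitors overlapped for each of the 10 members, while 28.5% of all genes did not overlap. The ratio of JQ1 to I-BET151 ranged from 0.916 for Hhex to 1.19 for Nkx6-2. For Mnx1 it was 1.02 with a 95% interval of 0.848 to 1.22, and for Nr5a2 1.00 with an interval of 0.895 to 1.12. Hexim1, a widely used marker of BET inhibition, was at 625 and 656 in the controls, 982 and 1053 with I-BET151 and 1263 and 1304 with JQ1, and rose under both (limma adjusted p = 0.0432 and 0.0143).

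Members differed between the 2 arrays of a treatment as well. On JQ1 2, 9 of 10 members were higher than on JQ1 1, Nr5a2 being the exception, with a median difference of 0.22 on the log2 scale. Among all genes 42.8% were higher on JQ1 2, and among 20 general epithelial genes 11 were, with a median difference of 0.04. On I-BET151 2, 3 of 10 members were higher than on I-BET151 1, beside 46.9% of all genes and 12 of the 20 epithelial genes. Liver markers also differed between these arrays. The summed intensity of 12 liver markers was 5783 to 6058 in the controls, 3627 and 5353 on the I-BET151 arrays, and 3591 and 5751 on the JQ1 arrays. The sum is weighted to the brightest markers, such as Ttr and Serpina1b. The mean of the 12 log2 values, set against the controls, was 0.17 and -0.17 in the controls. It was -0.79 and 0.28 with I-BET151, and -0.80 and 0.45 with JQ1. The replicate 2 arrays were thus below the controls by the sum and above them by the mean log2. Alb, the albumin gene, was at 179 and 58 in the controls, 35 and 421 with I-BET151 and 43 and 753 with JQ1, so that replicate 2 was the high array in each treated group. Hhex, Prox1 and Nr5a2 are also expressed in liver. From replicate 1 to replicate 2 of I-BET151, Hhex went from 147 to 131, Prox1 from 490 to 437 and Nr5a2 from 487 to 523. From JQ1 1 to JQ1 2, Hhex went from 118 to 137, Prox1 from 401 to 499 and Nr5a2 from 509 to 503. The part of liver RNA in the members' values was not tested.

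**Figure D3:**
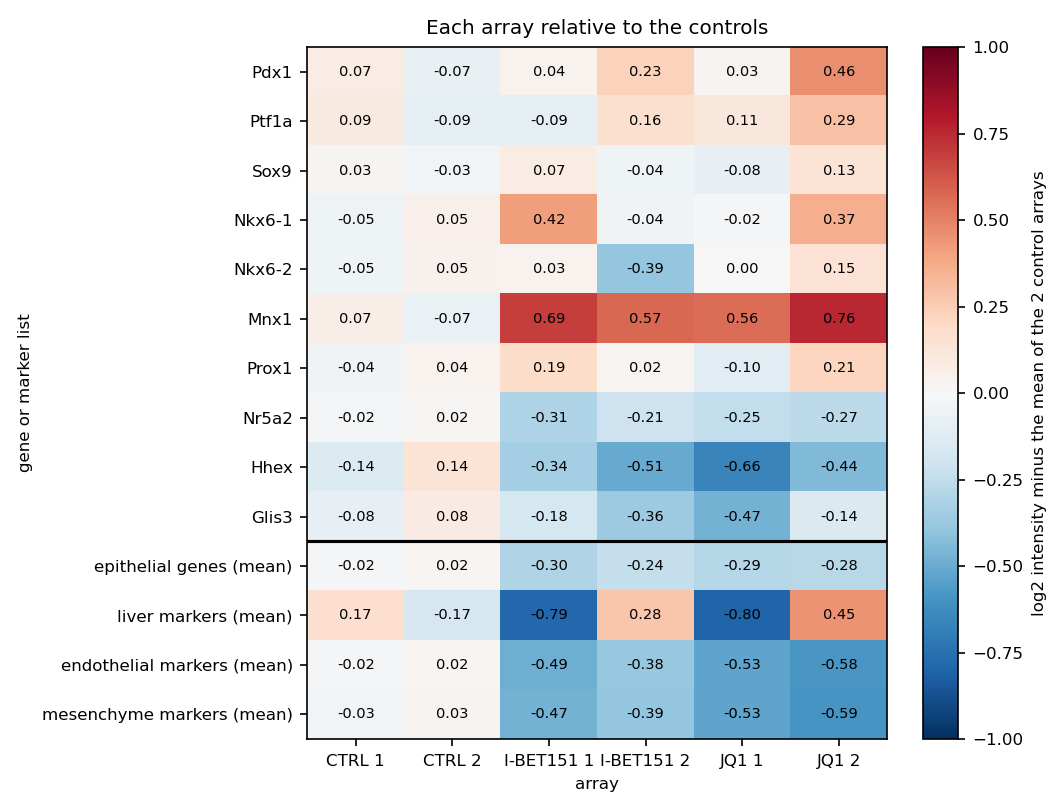
Log2 intensity on each array (horizontal axis) minus the mean of the 2 control arrays, for the 10 factors and for the mean of 4 marker lists (vertical axis), in colour and as printed numbers. Mnx1 is at 0.56 to 0.76 on the treated arrays, and the liver row swings from -0.80 on JQ1 1 to 0.45 on JQ1 2.

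Hhex is also an endothelial factor, and Prox1 one of lymphatic endothelium. All 12 endothelial markers had negative log2 changes under both inhibitors, and 2 fell under I-BET151 and 5 under JQ1. Their summed intensity was 6357 to 6495 in the controls, 4645 to 5012 under I-BET151 and 4360 to 4467 under JQ1. Among them Eng, a co-receptor of TGF-beta ligands, and Tek, the angiopoietin receptor, fell under both inhibitors. In whole buds, fewer cells of a type and less RNA per cell cannot be told apart, and the part of endothelium in the Hhex values was not tested. Sox9 and Prox1 are also used outside the epithelium. Of 15 mesenchyme markers 2 fell under I-BET151 and 4 under JQ1, 0 rose, and 4 and 3 had positive log2 changes that were not called. Of 9 neural crest markers 2 and 3 fell, 0 rose, and 1 and 2 had positive changes that were not called. Their summed intensities were 12825 to 13012 and 2198 to 2279 in the controls, 11049 to 11414 and 1127 to 1321 with I-BET151, and 10883 to 11024 and 1093 to 1181 with JQ1, and their part in the members' values was not tested. Of 8 gut markers, Vil1, the gene of the brush border protein villin, fell under both inhibitors. It was dim, at 26 and 28 in the controls, 17 and 16 with I-BET151 and 18 and 19 with JQ1. The other 7 were not called, and 4 and 3 of the 8 had positive log2 changes, with list medians of 0.02 and -0.06.

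The epithelium itself was checked with 20 general epithelial genes. Of these, 2 fell under I-BET151 and 5 under JQ1, among them the claudin gene Cldn3 and Rab25, a small GTPase of vesicle traffic, under both. In the same order, 0 rose, and 2 and 4 had positive log2 changes that were not called. Another claudin gene, Cldn6, was at 662 and 655 in the controls, 698 and 841 with I-BET151 and 816 and 869 with JQ1. The summed intensity of the 20 genes was 8243 to 8385 in the controls, 7054 to 7355 under I-BET151 and 7183 to 7533 under JQ1. Their median log2 change was -0.23 for each inhibitor. Epcam was at 735 and 733 in the controls, 644 and 637 with I-BET151 and 627 and 685 with JQ1, and E-cadherin, Cdh1, at 1433 and 1463, 1378 and 1393, and 1347 and 1489, and neither gene was called.

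Set against the mean of these 20 genes on each array, the members took other values. Mnx1 was higher by 0.90 and 0.94 on the log2 scale, Pdx1 by 0.40 and 0.53, Nkx6-1 by 0.46 and 0.46, Prox1 by 0.37 and 0.34, Ptf1a by 0.31 and 0.48 and Sox9 by 0.28 and 0.31, under I-BET151 and JQ1. Nr5a2 was at 0.01 and 0.03, Glis3 at 0.00 and -0.03, Hhex was at -0.15 and -0.27, and Nkx6-2 was at 0.092 and 0.36. On this scale 1 of 10 members, Mnx1, was called higher under I-BET151 and 3 of 10, Mnx1, Pdx1 and Ptf1a, under JQ1. The scaling raised most genes, so that 33.7% and 42.8% of all genes were called higher, and the members' counts were no larger than these shares. With Epcam and Cdh1 alone as the reference, a choice made after the data were seen, Mnx1 was the one member called under each inhibitor, where 1.55% and 2.77% of all genes were called higher.

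Genes that work with or follow the members were taken from lists. Of 9 measured genes whose proteins bind DNA with Ptf1a or Pdx1, 0 were called under either inhibitor, with medians of -0.02 and -0.09 on the log2 scale. Of 8 other tip genes 0 were called under either inhibitor, with medians of -0.23 and -0.22, and 7 of 8 were negative under each. For the mean of both inhibitors 1 of the 8, Myc, fell, at -0.53 on the log2 scale (limma adjusted p = 0.0310). In that contrast 4.92% of all genes were called. Cpa1, the carboxypeptidase that marks tip progenitors, was at 2925 and 3183 in the controls, 3046 and 3010 with I-BET151 and 2665 and 2568 with JQ1. Of 12 trunk genes 0 were called, with medians of 0.08 and 0.03. Of 7 paralogues of the members 0 were called, and Glis2, Sox8 and Nkx6-3 were among them.

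Some genes known as targets of the members fell, and a link of these falls to the members was not tested. Of 11 acinar secretory genes that Ptf1a and Nr5a2 drive, among them enzymes, the colipase gene Clps and the trypsin inhibitor gene Spink1, Pnliprp1 fell under I-BET151, and Pnliprp1, Clps, Ctrb1 and Cel fell under JQ1, with list medians of -0.29 and -0.39. Of 6 genes that Pdx1 or Nkx6-1 drive in beta cells, Slc2a2, the glucose transporter gene, fell under both. It went from 544 and 655 in the controls to 99 and 125 and to 76 and 76. The other 5 were not called, 3 and 2 of the 6 had positive log2 changes, and the list medians were -0.02 and -0.16. Ins2, Iapp and Glp1r were dim, at 9 and 9, 23 and 23, and 21 and 19 in the controls. Of 6 other endoderm factors, Hnf4a fell under both, from 276 and 286 to 141 and 132 and to 120 and 127. Of 12 endocrine lineage factors, Neurod1 rose under JQ1, from 147 and 164 to 277 and 279, and was at 271 and 231 under I-BET151. The calls over all genes leaned to falls, with 63 higher and 209 lower with I-BET151 and 272 and 640 with JQ1, and became 183 and 350, and 664 and 727, once array medians were made equal.

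**Figure D4:**
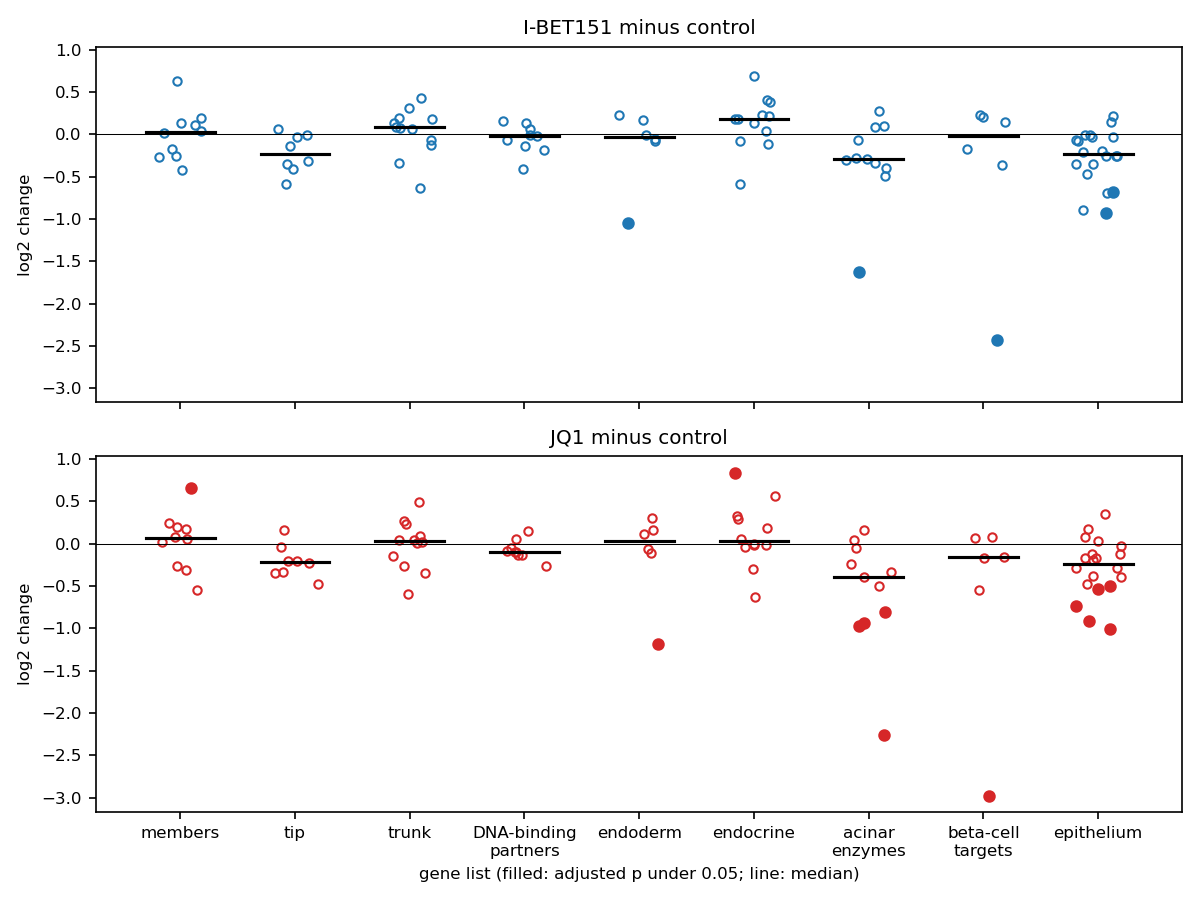
Log2 change against control (vertical axis) of each measured gene in the members and 8 related lists (horizontal axis), for I-BET151 above and JQ1 below, with filled points for an adjusted p under 0.05 and lines for list medians. The members spread from -0.42 to 0.63 and from -0.55 to 0.66 around medians near 0, while single genes of the endoderm, acinar and beta-cell lists reach -1.04 to -2.97.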

How the data were processed

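Per the labels' protocols, RNA was amplified, labelled with biotin and hybridised to Affymetrix whole-transcript arrays. The authors deposited linear intensities in whole numbers, made with RMA per the submitters' processing notes (no version given). Array medians were 54 to 57. Depth has no count equivalent, and 2 arrays a group limit the precision. RMA hides a change shared by most transcripts, and intensities of different genes are not comparable.

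Of 24972 rows, 24014 were named through the platform annotation, with symbols updated from RefSeq, and 958 were not named here. For repeated symbols the brightest row was kept. From log2(intensity), with no offset or filter, limma 3.58.1 in R 4.3.3 was fitted to all 6 arrays by group, with 3 residual and 1.76 prior degrees of freedom. The fit was tested on simulated data. Of the genes in 15 further lists, 16 had no named row and were not analysed here. Members and lists were chosen with earlier results of these data known. Named from lists were called genes, up to 4 a list, with Hexim1, Epcam and Cdh1; and for a called member the 4 nearest genes. Other listed genes named (Cpa1, Myc, Ins2, Alb, Ttr, Serpina1b, Spink1, Glis2, Sox8, Nkx6-3, Cldn6, Iapp, Glp1r, Noto, Lhx4) were chosen after their values were seen. Groups and replicate numbers came from the sample titles. Alternatives were an offset, filters, scalings, dithering, another prior, a replicate block, fewer arrays and leaving out each array.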

Additional observations from a re-analysis of the deposited data

How the results depend on the processing

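The fits rest on 2 arrays a group, with 1.76 prior degrees of freedom. Counts of called genes under I-BET151, JQ1 and their mean, 272, 912 and 1181, became 523, 1487 and 1802 with 10 added before log2, 1438, 2373 and 2689 without genes below the median intensity, and 798, 1728 and 2044 without the dimmest 25%. They were 1806, 2617 and 3006 with a trended robust prior, which also called 6 genes between the inhibitors. Centred on the epithelial genes they were 8516, 10959 and 13412. With array medians made equal they were 533 and 1391 for the inhibitors, with rounding dithered 590 for I-BET151, and centred on Epcam and Cdh1, an alternative added after the data were seen, 675 for I-BET151 and 1794 for the mean. With only the arrays compared, 0 genes and 0 members were called for each inhibitor. Leaving out 1 array, with all genes or without those below the median, gave 0 to 1059, 0 to 2221 and 0 to 2331 genes. The replicate block left 0 genes and 0 members called. Over all genes, deviations of same-numbered arrays correlated at -0.016 to -0.040, and no pairing was assumed. These correlations cannot settle whether same-numbered arrays shared a litter or culture, which the labels do not give. The liver markers were higher on replicate 2 in both treated groups.

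Members called, 0, 1 and 1 in the same order, were 1, 2 and 3 without genes below the median, 2, 3 and 3 with the trended robust prior, and 1, 3 and 6 on the epithelial scale. For I-BET151 the count was 1 without the dimmest 25%, with arrays centred on their medians, with dithering, and on Epcam and Cdh1. For the mean it was 2 with 10 added and 2 without the dimmest 25%. Leaving out 1 array in these ways gave 0 to 1, 0 to 2 and 0 to 2. Mnx1 kept a positive change against control in all 22 alternatives for each inhibitor, at 0.56 to 0.90 under I-BET151 and 0.56 to 0.94 under JQ1.

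Signs turned for values that were not called. On the epithelial scale Nkx6-2 was at 0.092, Nr5a2 at 0.010 and Glis3 at 0.0025 under I-BET151, Nr5a2 at 0.026 under JQ1, and Nkx6-2 and Nr5a2 at 0.22 and 0.018 for the mean. For the mean Nkx6-2 was at 0.0061 centred on array medians and 0.062 on Epcam and Cdh1, where the JQ1 to I-BET151 differences of Sox9, Mnx1 and Nr5a2 were -0.021, -0.0058 and -0.029. With 1 array left out, changes under I-BET151 ran from -0.038 to 0.42 for Nkx6-1, -0.39 to 0.031 for Nkx6-2, -0.090 to 0.16 for Ptf1a and -0.044 to 0.071 for Sox9. Under JQ1 they ran from -0.020 to 0.37 for Nkx6-1, -0.10 to 0.21 for Prox1 and -0.084 to 0.13 for Sox9, and for the mean from -0.16 to 0.053 for Nkx6-2 and -0.035 to 0.074 for Sox9. Between the inhibitors they ran from -0.20 to 0.12 for Glis3, -0.074 to 0.13 for Mnx1, -0.25 to 0.21 for Nkx6-1, -0.048 to 0.055 for Nr5a2, -0.11 to 0.33 for Pdx1, -0.21 to 0.11 for Prox1 and -0.098 to 0.12 for Sox9. The cause of these changes was not tested.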
